A study of Mus musculus with 8 samples.

Results

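Potassium channel genes, taken as every gene whose symbol begins with Kcn, accounted for 98 of the 25428 genes measured in mouse lung. Of these, 94 encode channel proteins or their accessory subunits and 4 are non-coding RNAs. RNA from lung lobes of 8 *Nfat5fl/fl* mice was measured with Affymetrix Mouse Gene 2.0 ST arrays, 1 per mouse. Hypoxia-exposed mice A, B, C and D had breathed 10% oxygen for 7 days, and normoxic mice F, G, H and I served as controls for this exposure. Both groups were adult males that carry a floxed *Nfat5* exon. Per the study's methods, such mice come from a line crossed with SM-MHC-CreERT2, a Cre recombinase driven by a smooth muscle myosin promoter, and received the solvent miglyol in place of tamoxifen, so that *Nfat5* was not deleted. Each array reads all cell types of the lung tissue together, and the letters name separate mice that are not paired between the groups. The comparison addressed whether the transcripts of potassium channels differed between hypoxia-exposed and normoxic lungs.

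Potassium channels let potassium leave the cell and so hold the membrane of smooth muscle cells at a negative potential, at which voltage-gated calcium channels stay closed. Voltage-gated channels open on depolarisation, calcium-activated channels open as cytosolic calcium rises, inward rectifiers of the ATP-sensitive type open as the energy state falls, and two-pore channels carry a background leak. In pulmonary arteries, low oxygen closes some of these channels, and the depolarisation that follows is a long-known step of hypoxic vasoconstriction. Closure of a channel is a change in protein activity, whereas the arrays report the transcript level.

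The stretches of promoter below belong to *Kcna5* and *Kcnj8*, 2 of the channels described first, to *Kcna3*, whose mean was lower in hypoxia by more than that of any other of the 98 genes, and to *Kcnk5*, whose mean was higher by more than any other. They were read from RefSeq sequence of assembly GRCm38.p6, and capitals mark matches to ACGTG or GCGTG, the core letters to which hypoxia-inducible factors bind, searched on both strands.
Kcna5, chr6:126535556-126535805, minus strand: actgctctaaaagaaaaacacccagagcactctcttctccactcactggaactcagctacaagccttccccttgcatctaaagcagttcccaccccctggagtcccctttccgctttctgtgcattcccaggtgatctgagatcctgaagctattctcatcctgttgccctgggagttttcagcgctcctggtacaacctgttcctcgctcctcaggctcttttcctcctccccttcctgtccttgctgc
Kcnj8, chr6:142571615-142571864, minus strand: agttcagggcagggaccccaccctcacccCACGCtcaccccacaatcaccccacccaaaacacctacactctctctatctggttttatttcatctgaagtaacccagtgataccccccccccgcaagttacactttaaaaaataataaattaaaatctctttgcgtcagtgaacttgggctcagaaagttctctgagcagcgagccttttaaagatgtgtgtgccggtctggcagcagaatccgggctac
Kcna3, chr3:107035912-107036161, plus strand: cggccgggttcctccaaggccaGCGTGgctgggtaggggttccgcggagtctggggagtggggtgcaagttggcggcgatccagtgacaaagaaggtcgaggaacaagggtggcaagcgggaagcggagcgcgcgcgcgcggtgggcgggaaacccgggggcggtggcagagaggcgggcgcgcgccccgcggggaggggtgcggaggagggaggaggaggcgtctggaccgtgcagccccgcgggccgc
Kcnk5, chr14:20181739-20181768, minus strand: gcagaggcggcaCACGTGtctgctggtgtg
The first 3 sequences are the 250 bases before the annotated start of the gene, and the last is a stretch of 30 bases behind the start. No match was present in the *Kcna5* stretch. *Kcnj8* and *Kcna3* each held 1 match to GCGTG, on the opposite strand in *Kcnj8*, at 221 and 228 bases before the start. In *Kcnk5* the letters CACGTG read as ACGTG on both strands, so that 2 overlapping matches stood 26 bases after the start. Such letters are frequent, since 46.4% of 97 promoter windows of 72 Kcn genes and 43.8% of all 32851 promoter windows held at least 1 match within 250 bases before to 50 bases after the start. A match is a description of the sequence, and binding was not measured.

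None of the 98 potassium channel genes passed the threshold, and the differences were small. With limma's moderated test and Benjamini-Hochberg adjustment over all 25428 genes, 0 channel genes had an adjusted p under 0.05, beside 0 (0%) of all genes, and the unmoderated test that the methods name likewise gave 0. Values are log2 intensities, so that a difference of 1 is a doubling, and each difference is hypoxia minus normoxia. At an unadjusted p under 0.05 there were 6 channel genes (6.12%), against 8.5% of all genes. Of these, 2 had a higher mean in hypoxia, against 5.34% of all genes, and 4 a lower one, against 3.15% of all genes. In 2 channel genes all 4 hypoxia-exposed mice lay above all 4 normoxic mice (3.01% of all genes), and in 0 they lay below (1.61% of all genes).

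The median difference of the 98 genes was 0.02, against -0.00 over all genes, and 54 of them (55.1%) had a higher mean in hypoxia, against 49.1% of all genes. The median size of the difference, regardless of sign, was 0.11, against 0.16 over all genes. No channel gene differed by 1 or more, which 1.09% of all genes did, and the differences lay between -0.50 (*Kcna3*) and 0.55 (*Kcnk5*). For 96 of the 98 genes (98%), against 90.9% of all genes, the 95% confidence interval of the difference in intensity lay within -1 and 1. Near background such an interval does not bound the change of the transcript. The exceptions were *Kcnk5* and *Kcnrg*. The mean level lay above 4.17, the median over all genes of their median level, in 38 channel genes (38.8%), against 50.1% of all genes. Of the channel genes, 20 lay above the median of the array on each of the 8 arrays and 54 on none, and how far these 54 stand above background is not known here.

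**Figure D1:**
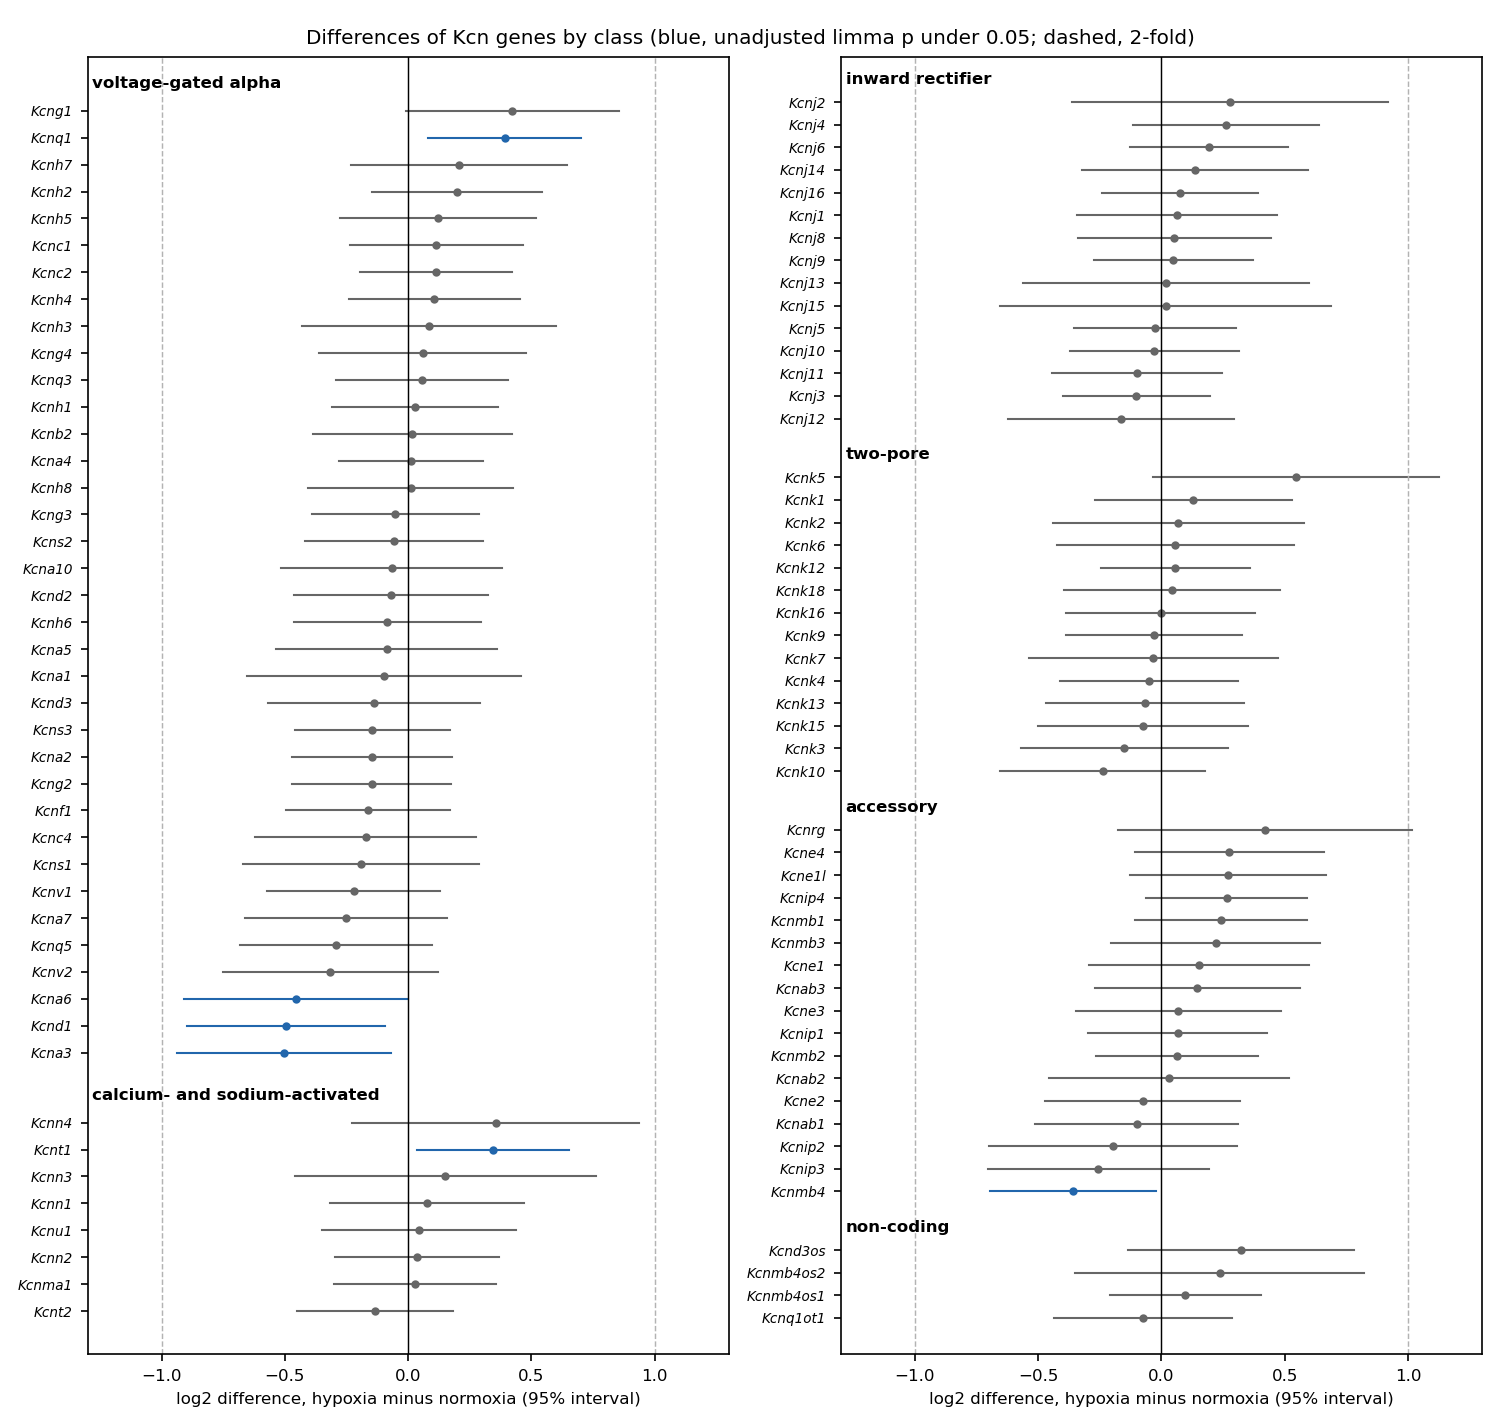
Difference between hypoxia-exposed and normoxic lungs (log2, hypoxia minus normoxia; horizontal axis) for channel genes by class, blue at an unadjusted p under 0.05, with points as differences and lines as 95% confidence intervals of limma (n = 4 mice each). The points lie between -0.50 and 0.55, and most intervals cross 0.

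*Kcna5* encodes Kv1.5, a voltage-gated channel known for its oxygen-sensitive current in pulmonary artery smooth muscle. It had log2 intensities of 2.97, 3.57, 3.57 and 2.88 in hypoxia-exposed mice A to D, against 3.55, 3.12, 3.18 and 3.49 in normoxic mice F to I. The groups overlapped in full, with B and C the highest and A and D the lowest of the 8, and each value lay below the median of its array. The difference was -0.09 (standard error 0.20, 95% confidence interval -0.53 to 0.36, limma adjusted p = 0.939), and a two-sided exact permutation test of the group means gave p = 0.657, where the smallest p that 70 assignments of 4 against 4 mice allow is 0.0286. The sign of this difference was not stable, since it was 0.0060 without mouse A and 0.035 without mouse D.

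*Kcnk3* encodes TASK-1, an acid-sensitive two-pore leak channel of pulmonary artery smooth muscle, in which mutations cause heritable pulmonary arterial hypertension in humans. Its values were 6.12, 6.62, 6.38 and 6.01 in hypoxia-exposed mice A to D, against 6.80, 6.28, 6.17 and 6.48 in normoxic mice F to I. Mouse F was the highest and mouse D the lowest, and the other 6 interleaved. *Kcnk3* differed by -0.15 (standard error 0.19, 95% confidence interval -0.57 to 0.27, limma adjusted p = 0.876, exact permutation p = 0.457), or folds of intensity between 0.674 and 1.21. Without mouse F the difference was -0.028, and without mouse B it was -0.26.

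*Kcnj8* encodes Kir6.1, the pore of the vascular ATP-sensitive channel and a marker of pericytes. Hypoxia-exposed mice A to D had 4.80, 5.09, 4.82 and 4.86, against 5.29, 4.69, 4.83 and 4.56 in normoxic mice F to I. The hypoxia-exposed lungs lay inside the range of the normoxic lungs, which mouse F set at the top and mouse I at the bottom. The difference was 0.05 (standard error 0.18, 95% confidence interval -0.34 to 0.45, limma adjusted p = 0.961, exact permutation p = 0.8), or folds between 0.79 and 1.36, and its sign turned without mouse B (-0.013) or mouse I (-0.040). Of 12 pericyte genes, 5 had a higher mean at an unadjusted p under 0.05 (5.34% of all genes) and 0 a lower one (3.15%). The pericyte list had mean levels of 6.66 to 7.11 in hypoxia-exposed and 6.39 to 6.85 in normoxic lungs. Its part in the value of *Kcnj8* was not tested.

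*Kcnmb1* encodes the beta1 subunit, which raises the calcium sensitivity of the large-conductance (BK) channel in smooth muscle. Its levels were 6.44, 6.47, 6.36 and 5.97 in hypoxia-exposed mice A to D, against 6.22, 6.11, 5.99 and 5.95 in normoxic mice F to I. Mice A, B and C lay above every normoxic mouse, while D lay among them. The difference of 0.24 (standard error 0.16, 95% confidence interval -0.11 to 0.59, limma adjusted p = 0.733, exact permutation p = 0.143) left folds between 0.929 and 1.51. The smooth muscle list had mean levels of 6.48 to 6.80 in hypoxia-exposed lungs and 6.12 to 6.61 in normoxic lungs. Of its 15 genes 5 were higher and 1 was lower in mean with an unadjusted p under 0.05 (5.34% and 3.15% of all genes). The lower one was *Pln*, which is also in the list of cardiac muscle markers given below. The part of smooth muscle in the value of *Kcnmb1* was not tested. In whole lung tissue, fewer cells of a type and less RNA per cell cannot be told apart, and the same holds for more cells and more RNA.

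**Figure D2:**
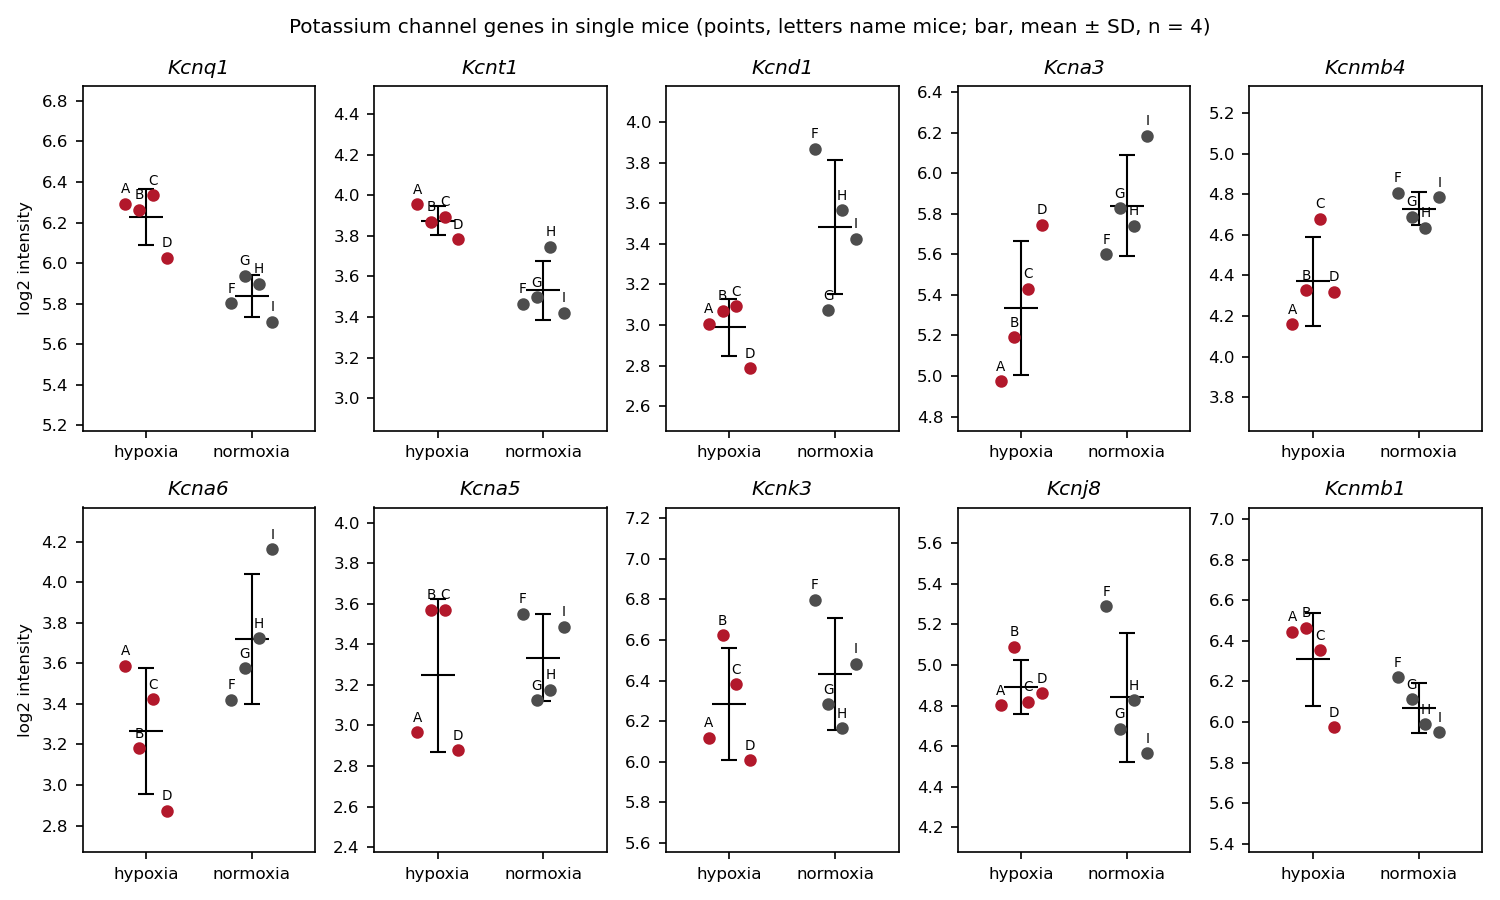
Log2 intensity (vertical axis) of the 4 channels described first and of the 6 channel genes with an unadjusted p under 0.05, with 1 lettered point per mouse and bars for the mean ± SD of each group (n = 4 mice each). *Kcna5* and *Kcnk3* show interleaved groups, whereas in *Kcnq1* and *Kcnt1* each hypoxia-exposed mouse lies above each normoxic mouse.

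The 6 genes below an unadjusted p of 0.05 were *Kcnq1* and *Kcnt1*, with higher means in hypoxia, and *Kcnd1*, *Kcna3*, *Kcnmb4* and *Kcna6*, with lower means. Their adjusted p lay between 0.450 and 0.588 (limma), so that none of them passed. Their number moved with single mice. The count of higher genes was 4 without mouse A (4.61% of all genes). It was 1 without mouse B or mouse G (3.37% and 5.36% of all genes). The count of lower genes was 1 without mouse B or mouse I (1.88% and 2.67% of all genes). It was 2 without mouse A, D, F or G (3.32% to 3.77% of all genes).

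*Kcnq1* encodes Kv7.1, which carries the slow repolarising current of the heart with *Kcne1* and a steady potassium current in epithelia with *Kcne2* or *Kcne3*. It had 6.29, 6.26, 6.33 and 6.03 in hypoxia-exposed mice A to D, against 5.80, 5.94, 5.90 and 5.71 in normoxic mice F to I. Even mouse D, the lowest of the hypoxia-exposed mice, lay above mouse G, the highest normoxic one. The difference was 0.39 (standard error 0.14, 95% confidence interval 0.08 to 0.70, fold 1.31, limma adjusted p = 0.450). *Kcnq1* was the only one of the 6 that kept an unadjusted p under 0.05 in all 16 alternative analyses. Its antisense transcript *Kcnq1ot1* overlaps the gene, and its probe set showed a difference of -0.07 (standard error 0.16).

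*Kcnt1* encodes a sodium-activated potassium channel best known from neurons. Its intensities were 3.96, 3.87, 3.89 and 3.78 in hypoxia-exposed mice A to D, against 3.47, 3.50, 3.75 and 3.42 in normoxic mice F to I, all below the median of their array. The groups did not overlap, by a margin of mouse D over mouse H. The difference was 0.34 (standard error 0.14, 95% confidence interval 0.04 to 0.65, limma adjusted p = 0.523), and 8 of the 15 alternatives that tested it kept an unadjusted p under 0.05.

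*Kcnd1* encodes Kv4.1, an A-type channel that opens briefly and inactivates quickly. Hypoxia-exposed mice A to D had 3.01, 3.07, 3.09 and 2.79, against 3.87, 3.07, 3.56 and 3.43 in normoxic mice F to I. The hypoxia-exposed mice were tightly grouped, and mouse G alone of the normoxic mice lay among them. *Kcnd1* differed by -0.49 (standard error 0.18, 95% confidence interval -0.90 to -0.09, limma adjusted p = 0.462). All its values lay below the median of their array.

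*Kcna3* encodes Kv1.3, known for setting the membrane potential of T lymphocytes. It had 4.97, 5.19, 5.43 and 5.75 in hypoxia-exposed mice A to D, against 5.60, 5.83, 5.74 and 6.19 in normoxic mice F to I. The overlap came from mouse D, which lay above F and level with H. The difference was -0.50 (standard error 0.20, 95% confidence interval -0.94 to -0.07, fold 0.705, limma adjusted p = 0.50), and 12 of the 16 alternatives kept an unadjusted p under 0.05. Without mouse A *Kcna6*, and without mouse B, G or I *Kcnd1*, was lower in mean by more than *Kcna3*. Beside it, the lymphocyte list had mean levels of 5.44, 5.13, 5.19 and 4.93 in mice A to D, against 6.28, 5.35, 5.71 and 5.16 in mice F to I. The genes of this list with an unadjusted p under 0.05 were the B cell genes *Pax5*, *Cd79b*, *Ms4a1* and *Cd79a*, all lower in mean. Of all genes, 3.15% were lower at this threshold. The T cell members of the list differed by -0.48 (*Trac*), -0.26 (*Cd8a*), 0.02 (*Cd3e*), 0.16 (*Cd3d*) and 0.16 (*Cd4*), each with an unadjusted p above the threshold. The part of lymphocytes in the value of *Kcna3* was not tested.

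*Kcnmb4* encodes the beta4 subunit of the BK channel, most abundant in brain. The values were 4.16, 4.33, 4.68 and 4.32 in hypoxia-exposed mice A to D, against 4.81, 4.69, 4.63 and 4.79 in normoxic mice F to I. Only mouse C of the hypoxia-exposed mice reached the normoxic range. The difference was -0.36 (standard error 0.15, 95% confidence interval -0.69 to -0.02, limma adjusted p = 0.553). *Kcna6*, which encodes the neuronal Kv1.6, had 3.59, 3.18, 3.42 and 2.87 in hypoxia-exposed mice A to D, against 3.42, 3.58, 3.72 and 4.16 in normoxic mice F to I. Each value of *Kcna6* lay below the median of its array. Mice B and D lay below every normoxic mouse, and H and I lay above every hypoxia-exposed mouse, while A, C, F and G overlapped. Its difference of -0.45 (standard error 0.21, adjusted p = 0.588) lay just under the unadjusted threshold and kept it in 6 of the 15 alternatives that tested it, and that of *Kcnmb4* in 7 of 16.

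By class, the 40 voltage-gated pore subunits had a median difference of -0.06, with 16 higher and 24 lower means. An unadjusted p under 0.05 was found in 1 of the higher and 3 of the lower ones. For this and the other classes, the shares of all genes at that threshold were 5.34% higher and 3.15% lower. Over all genes 49.1% had a higher mean in hypoxia, and the counts by subfamily were as follows. In the Shaker subfamily Kcna 7 of 8 genes had a lower mean (median -0.12), with *Kcna4* (0.01) as the exception. All 3 Kcnd genes had a lower mean (*Kcnd1* -0.49, *Kcnd2* -0.07, *Kcnd3* -0.14), as did all 3 Kcns genes and both Kcnv genes. The Kcns, Kcnv, Kcnf and Kcng genes encode silent subunits, which form no channel alone but alter other voltage-gated channels. In the ether-a-go-go subfamily Kcnh 7 of 8 genes had a higher mean (median 0.10), and 2 of 8 had a mean level above 4.17. Genes of a subfamily were counted without a test, and outside the 6 genes above each of these differences had an unadjusted p above the threshold. For *Kcna4*, *Kcna5* and further members of Kcna, for *Kcnd2*, and for members of Kcns and Kcnh, the sign turned in at least 1 alternative. Only 1 Kcna, 1 Kcnd, 1 Kcns and 0 Kcnv genes had a mean level above 4.17.

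Several other voltage-gated channel genes overlapped between the groups. *Kcns3*, which encodes the silent subunit Kv9.3, averaged 4.12 ± 0.14 in hypoxia and 4.26 ± 0.12 in normoxia (SD, n = 4 each), a difference of -0.15 (95% confidence interval -0.46 to 0.17). *Kcnd3*, encoding Kv4.3, averaged 4.24 ± 0.30 in hypoxia and 4.38 ± 0.27 in normoxia. *Kcnh2*, which encodes the ERG1 channel of cardiac repolarisation, had means of 5.24 ± 0.18 in hypoxia and 5.04 ± 0.18 in normoxia, and its interval of -0.15 to 0.54 included 0. The silent subunit genes *Kcnf1*, *Kcng2* and *Kcnv1* differed by -0.16, -0.15 and -0.22, and the silent subunit gene *Kcng1* by 0.42 (95% confidence interval -0.01 to 0.85, limma adjusted p = 0.597).

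Among the 15 inward rectifiers, 10 had a higher and 5 a lower mean (median 0.05), and 0 had an unadjusted p under 0.05. *Kcnj13*, encoding the epithelial Kir7.1, averaged 6.42 ± 0.38 in hypoxia and 6.40 ± 0.51 in normoxia. This class held the 2 genes of all 98 whose values spread most within a group. *Kcnj2* encodes Kir2.1, the classic strong rectifier of heart and endothelium, and had 4.71, 4.50, 3.75 and 5.45 in hypoxia-exposed mice A to D, against 4.15, 4.48, 4.40 and 4.27 in normoxic mice F to I. Mice C and D marked the bottom and the top of all 8 lungs, so that the mean difference of 0.28 (95% confidence interval -0.36 to 0.92) became -0.0053 without mouse D. *Kcnj15*, encoding Kir4.2 of epithelia, had 4.48, 4.15, 4.97 and 5.23 in hypoxia-exposed mice A to D, against 3.83, 4.82, 5.12 and 4.99 in normoxic mice F to I. Mouse F was the lowest, and the difference of 0.02 became -0.27 without it.

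The 14 two-pore genes had a median difference of -0.02, with 6 higher and 8 lower means and 0 at an unadjusted p under 0.05. *Kcnk6* (TWIK-2) averaged 6.80 ± 0.41 in hypoxia and 6.74 ± 0.25 in normoxia. *Kcnk1* (TWIK-1) averaged 6.20 ± 0.22 in hypoxia and 6.07 ± 0.28 in normoxia, and *Kcnk2* (TREK-1), a channel opened by stretch, 5.37 ± 0.40 in hypoxia and 5.30 ± 0.34 in normoxia. *Kcnk5* encodes TASK-2, an alkaline-activated channel of epithelia, and had the largest difference of all 98 genes in the full set. Its values were 4.59, 5.0, 5.35 and 4.83 in hypoxia-exposed mice A to D, against 4.94, 4.55, 4.46 and 3.64 in normoxic mice F to I. Mouse I lay far below the other 7. Mouse F lay above A and D, and each hypoxia-exposed mouse lay above G, H and I. The difference of 0.55 had a confidence interval of -0.03 to 1.12 (limma adjusted p = 0.620). Without mouse I it was 0.29, and *Kcng1* (0.52) then had the largest higher mean. The difference of *Kcnk5* was 0.73 without mouse F and 0.66 without mouse A, each at an unadjusted p under 0.05 (limma).

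Of the 8 calcium- and sodium-activated pore genes 7 had a higher mean in hypoxia (median 0.06), and *Kcnt1* was the only one with an unadjusted p under 0.05. *Kcnma1*, the pore of the BK channel, had means of 2.95 ± 0.09 in hypoxia and 2.92 ± 0.20 in normoxia (difference 0.03, 95% confidence interval -0.30 to 0.35), with every value below the median of its array. All 4 genes of the small- and intermediate-conductance subfamily Kcnn had a higher mean, beside 49.1% of all genes. For members of Kcnn, *Kcnn3* among them, the sign turned in at least 1 alternative. *Kcnn3*, which encodes the endothelial SK3 channel, averaged 4.94 ± 0.41 in hypoxia and 4.78 ± 0.53 in normoxia. *Kcnn4*, which encodes the intermediate-conductance channel of endothelial and immune cells, differed by 0.36 (95% confidence interval -0.23 to 0.94), and by 0.15 without mouse I. Without mouse F the difference of *Kcnn4* was 0.59, at an unadjusted p under 0.05 (limma). The sperm-specific channel gene *Kcnu1* averaged 2.34 ± 0.28 in hypoxia and 2.29 ± 0.20 in normoxia.

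The 17 accessory genes had a median difference of 0.07, with 12 higher and 5 lower means, of which *Kcnmb4* alone had an unadjusted p under 0.05. *Kcnab2*, a beta subunit of Kv1 channels, averaged 5.11 ± 0.15 in hypoxia and 5.08 ± 0.47 in normoxia. *Kcne2*, a small single-pass partner of *Kcnq1* and *Kcnh2* channels, averaged 5.71 ± 0.25 in hypoxia and 5.79 ± 0.25 in normoxia. *Kcnip3*, which encodes a calcium-binding partner of Kv4 channels that also acts as a transcriptional repressor, averaged 4.66 ± 0.25 in hypoxia and 4.91 ± 0.36 in normoxia. *Kcnrg* encodes a protein that interferes with the assembly of voltage-gated channels, and averaged 4.71 ± 0.57 in hypoxia and 4.29 ± 0.33 in normoxia (difference 0.42, 95% confidence interval -0.18 to 1.02). Its difference was 0.19 without mouse A and 0.65 without mouse C. The 4 non-coding genes *Kcnq1ot1*, *Kcnd3os*, *Kcnmb4os1* and *Kcnmb4os2* differed by -0.07, 0.32, 0.10 and 0.24 (limma adjusted p of 0.726 or more), and whether their probes tell them from the genes they overlap is not given in the sources used here.

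Genes whose proteins assemble with each other were next set side by side. For the BK channel the pore gene *Kcnma1* differed by 0.03, beside *Kcnmb1* at 0.24, *Kcnmb2* at 0.06, *Kcnmb3* at 0.22 and *Kcnmb4* at -0.36. For the ATP-sensitive channel the pore genes *Kcnj8* and *Kcnj11* differed by 0.05 and -0.10, and the sulfonylurea receptor genes *Abcc9* and *Abcc8* by 0.02 and -0.23. *Kcnq1* at 0.39 stood beside *Kcne1* at 0.15, *Kcne1l* at 0.27, *Kcne2* at -0.08, *Kcne3* at 0.07 and *Kcne4* at 0.28. The Kv4 pore genes *Kcnd1* (-0.49), *Kcnd2* (-0.07) and *Kcnd3* (-0.14) stood beside the partner genes *Kcnip1* (0.07), *Kcnip2* (-0.20), *Kcnip3* (-0.26), *Kcnip4* (0.26), *Dpp6* (-0.17) and *Dpp10* (-0.15). Of the genes in these groups only *Kcnq1*, *Kcnd1* and *Kcnmb4* had an unadjusted p under 0.05, and differences between subunits were not tested.

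**Figure D3:**
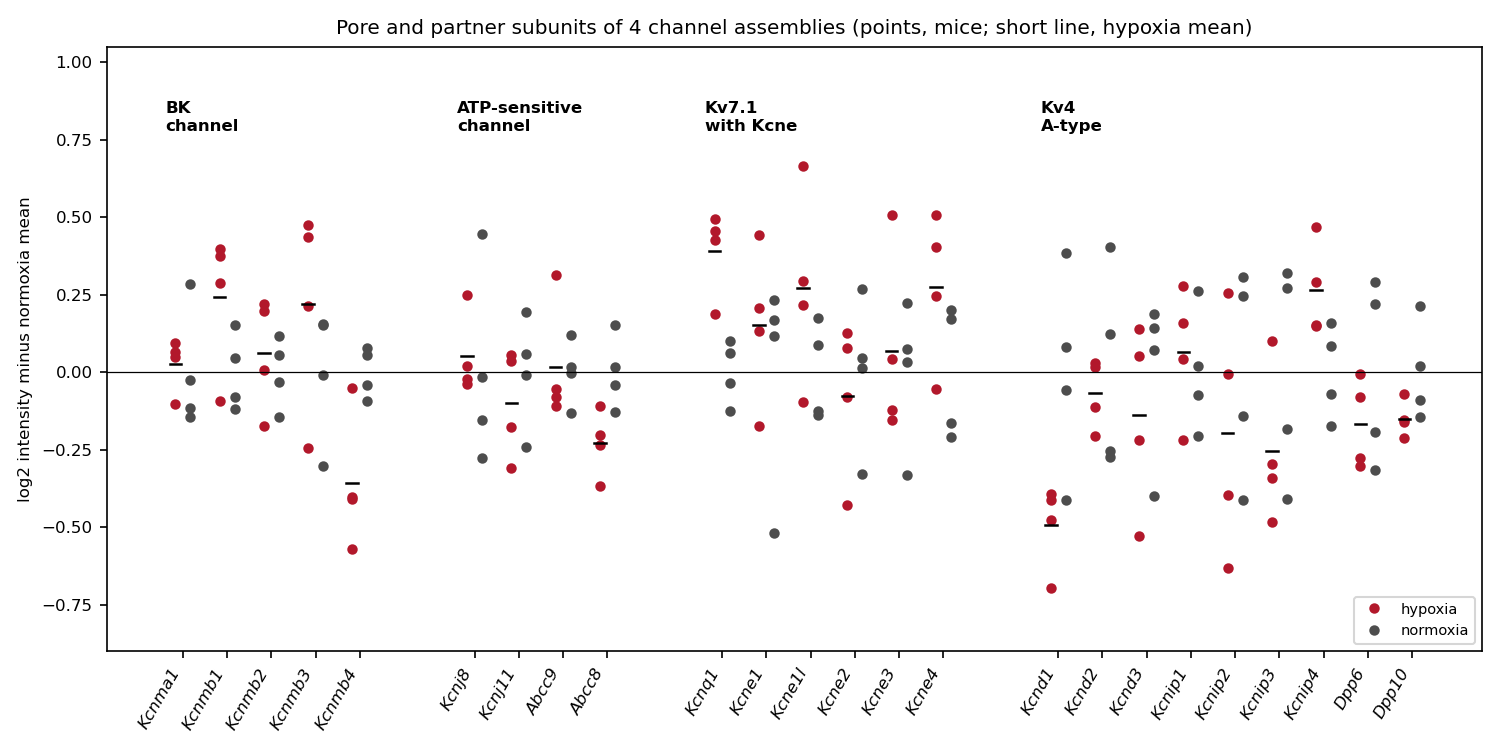
Log2 intensity minus the normoxia mean of each gene (vertical axis) for pore and partner subunits of 4 channel assemblies, with 1 point per mouse (n = 4 mice each) and a short line at the hypoxia mean. The hypoxia means lie between -0.49 (*Kcnd1*) and 0.39 (*Kcnq1*), and most genes show both groups scattered about 0.

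The 19 channel partners without a Kcn symbol had a median difference of -0.03. At an unadjusted p under 0.05, 1 had a higher and 0 a lower mean (5.34% and 3.15% of all genes). The higher one was *Hcn2*, which encodes a pacemaker channel (0.47, standard error 0.20, limma adjusted p = 0.557). The other side of potassium handling comprises the sodium-potassium pump and the chloride cotransporters. Here 3 of 21 genes had a higher and 0 a lower mean at an unadjusted p under 0.05 (5.34% and 3.15% of all genes). The median difference of the 21 genes was 0.07. *Slc12a4*, encoding the potassium-chloride cotransporter KCC1, averaged 7.66 ± 0.32 in hypoxia and 6.80 ± 0.56 in normoxia, a difference of 0.87 (standard error 0.27, limma adjusted p = 0.340), with each hypoxia-exposed mouse above each normoxic one. *Fxyd6*, a modulator of the pump, differed by 0.56 (standard error 0.19) and *Slc12a7*, the cotransporter KCC4, by 0.46 (standard error 0.18). None passed after adjustment.

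Markers of cell types other than vascular muscle were examined in the same lungs. At an unadjusted p under 0.05, 5.34% of all genes were higher and 3.15% lower in hypoxia. Alveolar markers were bright in both groups, with mean levels of 10.05 to 10.35 in hypoxia-exposed and 9.96 to 10.28 in normoxic lungs, and all 14 had a mean above 4.17. Fat cell markers had mean levels of 5.17 to 5.43 in hypoxia-exposed and 5.74 to 7.48 in normoxic lungs, with 12 of 15 genes lower at an unadjusted p under 0.05, and cardiac muscle markers 5.56 to 5.74 in hypoxia-exposed and 5.86 to 6.35 in normoxic lungs, with 9 of 20 genes lower. Skeletal muscle markers stood at 3.61 to 4.42 in hypoxia-exposed lungs, against 6.40 and 6.43 in normoxic mice F and G and 3.55 and 4.13 in H and I, with 7 of 18 genes lower at an unadjusted p under 0.05. Genes of dividing cells had all 12 members higher in mean, 11 of them at an unadjusted p under 0.05, with levels of 4.95 to 6.11 in hypoxia-exposed and 3.86 to 4.53 in normoxic lungs. Without mice F and G the differences were 0.42 for *Kcnq1*, 0.29 for *Kcnt1*, -0.51 for *Kcnd1*, -0.63 for *Kcna3*, -0.34 for *Kcnmb4* and -0.68 for *Kcna6*, and 0 channel genes passed the adjusted threshold. In this setting *Kcnt1* and *Kcnmb4* no longer had an unadjusted p under 0.05, while other channel genes, *Kcnk5* among them, did. The part of fat, heart muscle and dividing cells in the channel values was not tested.

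**Figure D4:**
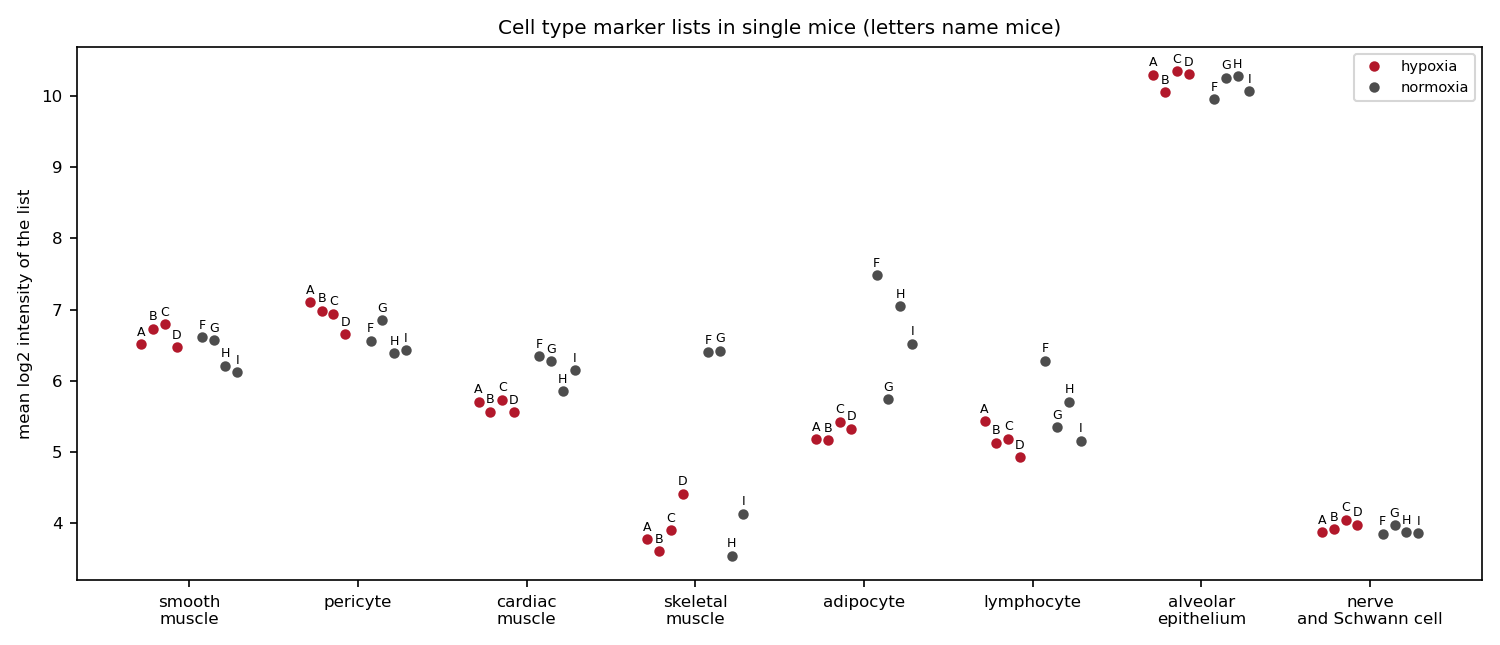
Mean log2 intensity (vertical axis) of 8 cell type marker lists (horizontal axis) in every lung, with 1 lettered point per mouse (n = 4 mice each). Adipocyte and cardiac lists lie lower in each hypoxia-exposed mouse than in each normoxic mouse, and the skeletal muscle list is high in normoxic mice F and G.

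The remaining marker lists had at most 6 members with an unadjusted p under 0.05, beside 5.34% higher and 3.15% lower of all genes. Endothelial markers showed 4 of 15 higher and 2 lower (median 0.02), and alveolar markers 1 of 14 higher and 0 lower (median 0.21). For airway epithelium 2 of 13 were higher and 0 lower (median 0.05), for macrophages and neutrophils 2 of 14 higher and 1 lower (median 0.03), for erythroid cells 1 of 8 higher and 0 lower (median 0.16), and for nerve and Schwann cells 1 of 12 higher and 0 lower (median -0.02). The other medians were -0.52 for cardiac muscle, -1.29 for skeletal muscle, -1.23 for adipocytes, 0.29 for smooth muscle, 0.35 for pericytes, -0.34 for lymphocytes and 1.51 for dividing cells. None of the list genes passed the adjusted threshold.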

How the data were processed

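The authors deposited log2 intensities, 1 value per gene and array, made with RMA (submitters' processing notes, no version), a custom Entrez-based chip definition (version 22) and quantile normalization. Beyond the name RMA, the background correction is not described in the sources used here. Array medians lay between 4.17 and 4.20. On 7 arrays 100% of the numbers fell on a common step, against 1.07% for normoxic mouse F, which was kept at a finer resolution, and whether that array was handled differently was not tested. No read depth applies to arrays, whose precision rests on 4 mice per group. Array annotation named 24705 of the 25428 probe sets, an Entrez match to RefSeq of GRCm38.p6 named 564, and 159 had no symbol.

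Hypoxia was compared with normoxia by limma 3.58.1 (in R 4.3.3) on every probe set, dim ones included, with Benjamini-Hochberg adjustment and a threshold of 0.05, and the code was tested on simulated data. For the 4 genes the rule named, a two-sided exact permutation test was added. Tables and plots used Python 3.11.15. The p-values measure the spread between separate mice.

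Genes described were the 4 named ones, members with an unadjusted p under 0.05 or groups that did not overlap, the member with the brightest probe set in each subfamily, and the 2 with the largest within-group SD. *Kcnk5*, *Kcng1*, *Kcnn4*, *Kcnk1*, *Kcnk2*, the subunits of the assemblies and the T cell genes were chosen after their values were seen. Some genes that the rule takes are counted but not reported here. Members and lists were chosen with earlier results of these data known. The 16 alternatives were another quantile normalization, arrays centred on their medians, a filter on dim probe sets, the methods' one-way ANOVA, a robust variance with intensity trend, weighted arrays, a restriction to named probe sets, leaving out each of the 8 mice and, added after seeing the data, leaving out mice F and G. Arrays of other genotypes were not used here.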

Additional observations from a re-analysis of the deposited data

Results flagged for a closer look

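*Kcnv1*, which encodes the silent subunit Kv8.1, had 3.11 in hypoxia-exposed mouse D, apart from the other hypoxia-exposed mice at 3.25, 3.25 and 3.23. The gap to the nearest mouse made up 0.878 of the range of the group, above the limit of Dixon's test for 4 values. The normoxic mice F to I had 3.29, 3.15, 3.56 and 3.72. Such a gap arises by chance in about 1 in 20 groups, and it was the only one in 54 groups of the 27 genes checked.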

How the results depend on the processing

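No channel gene passed the adjusted threshold in any of the 16 alternatives, while over all genes 0 to 53 did (53 without dim probe sets, 33 without mouse C). The full set had 2 higher and 4 lower genes at an unadjusted p under 0.05 (5.34% and 3.15% of all genes). With array weights there were 4 higher and 5 lower (6.56% and 4.4% of all genes). Without mice F and G there were 3 higher and 6 lower (7.32% and 5.76% of all genes). The one-way ANOVA gave *Kcnq1*, *Kcnt1* and *Kcnip4* as higher and 2 genes as lower (4.99% and 2.89% of all genes). Without dim probe sets 1 was higher and 1 lower, of 38 genes tested (7.21% and 3.54% of all genes kept). Leaving out 1 mouse at a time gave 1 to 4 higher genes (4 without mouse A, and 3.37% to 6.68% of all genes). It gave 1 to 3 lower genes (1.88% to 4.32% of all genes). Genes with hypoxia above normoxia in every mouse, 2 in the full set, numbered 1 without dim probe sets (4.42% of all genes kept). Without mice F and G they numbered 7 (10.9% of all genes). With 1 mouse left out they numbered 2 to 5 (5 without A or F, 4 without C, and 3.25% to 6.98% of all genes). Genes below in every mouse, 0 in the full set, numbered 9 without F and G (11.1% of all genes) and 0 to 3 with 1 mouse left out (3 without C or D, and 2.02% to 3.94% of all genes). The median difference of the 98 genes lay between -0.0017 (without G) and 0.029 with 1 mouse left out. Fewer mice make full separation more frequent, and fewer genes were tested without dim probe sets.

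Signs turned in at least 1 alternative in 49 of all 98 genes, of which 11 were among the 27 genes taken by the rule and reported here. With array weights these were *Kcna5* (0.031), *Kcnab2* (-0.011), *Kcnj13* (-0.11), *Kcnj15* (-0.062), *Kcnma1* (-0.046) and *Kcnu1* (-0.0043), and without F and G *Kcnj15* (-0.35), *Kcnk6* (-0.14) and *Kcnn3* (-0.029). With 1 mouse left out, differences spanned -0.20 to 0.035 for *Kcna5*, -0.17 to 0.22 for *Kcnab2*, -0.19 to 0.041 for *Kcne2*, -0.19 to 0.22 for *Kcnj13*, -0.27 to 0.20 for *Kcnj15*, -0.0053 to 0.56 for *Kcnj2*, -0.040 to 0.20 for *Kcnj8*, -0.050 to 0.26 for *Kcnk6*, -0.021 to 0.12 for *Kcnma1*, -0.0091 to 0.40 for *Kcnn3* and -0.051 to 0.15 for *Kcnu1*. The causes were not tested. No paired analysis was possible because the letters of the mice are not shared between the groups. With 4 mice per group, the median standard error of a channel gene was 0.18, and 60 of the 98 probe sets lay at or below 4.17 in mean. How far these stand above background is not known here.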

Other observations

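The genes outside the family whose deviations from the group means were most like those of *Kcna5* were *Olfr1115*, *Gldn*, *Gm16069*, *Nthl1* and *Zfp865* (Pearson's r of 0.978 to 0.983). For *Kcnk3* they were *Plcd3*, *Farsa*, *Pantr1*, *Paqr5* and *Fkbp4* (0.976 to 0.988), and for *Kcnj8* they were *Tgm1*, *Serpinb5*, *Lce1f*, *Ercc6l* and an immunoglobulin kappa variable gene (0.981 to 0.989). These are descriptions over 8 arrays, which share their mice, and the highest values of a search over 25171 genes.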
